A study of Mus musculus with 46 samples.

Results

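Gene expression in the stria terminalis bed nucleus (BNST) was compared between mice that had gone through chronic intermittent ethanol vapor (CIE) and mice that had breathed air (Ctrl), both collected 72 h after the last chamber session. The members of this comparison were the arrays whose titles gave the BNST and that time, 6 CIE and 6 Ctrl of the 46 arrays of the series, and each array held the RNA of 1 mouse. The other 34 arrays came from mice collected at 0 h, 8 h or 7 d and were used to estimate the spread between mice and to ask whether an effect at 72 h differed from that at other times. All mice were adult male C57BL/6J. CIE mice went through 4 cycles of 4 days with 16 hours of ethanol vapor per day, separated by 7 days of abstinence, and were primed with ethanol (1.6 g/kg) and pyrazole (1 mmol/kg). Ctrl mice received saline with the same pyrazole and air in the chambers, so both groups carry pyrazole, an inhibitor of alcohol dehydrogenase, and Ctrl mice were not untreated animals.

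The BNST is a small nucleus of the extended amygdala that links the amygdala with hypothalamus and midbrain, and it is known for its part in sustained fear, stress hormone output and the aversive side of drug withdrawal. Most of its neurons release GABA, many together with a neuropeptide such as corticotropin-releasing hormone, enkephalin or nociceptin. It borders the striatum, the septum, the thalamus, the preoptic area and the basal forebrain, where large cholinergic neurons synthesize acetylcholine with Chat, load it into vesicles with Slc18a3 and take choline back up with Slc5a7. Bulk tissue was measured, so fewer cells of a type and less RNA per cell cannot be told apart.

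At 72 h the genes that fell in CIE included transcription factors and a receptor of basal forebrain cholinergic neurons, secreted signals and genes of oligodendrocytes and microglia, and those that rose included potassium and calcium channels, the nociceptin precursor and receptors of peptides. A probeset was called where limma's adjusted p did not exceed 0.01, which held for 195 of 45037 probesets (0.433%), and 137 of these were higher in CIE (0.304%) and 58 lower (0.129%). At an unadjusted p under 0.05 there were 5667. By the representative probeset of each gene, 85 of 18193 genes rose (0.467%) and 40 fell (0.22%). Of these 125 genes 79 had further probesets. Another probeset was called in the same direction in 14 genes and in the opposite direction in 0. In 20 genes another probeset had the opposite sign without a call. The differences were modest, with a median size of 0.43 on the log2 scale over the called probesets, a range of sizes from 0.17 to 1.78, and 7 probesets beyond 2-fold. In 116 of the 125 called genes the 6 CIE mice did not overlap the 6 Ctrl mice, and in the other 9 it was 5 CIE mice that lay beyond every Ctrl mouse. Over all genes, called or not, CIE lay wholly above Ctrl in 445 (2.45%) and wholly below in 380 (2.09%). The median difference over all genes was -0.0036.

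The deposited values had been quantile normalized over all arrays, so like array medians follow from the processing and do not describe array quality. Array medians lay between 6.78 and 6.83 over the 46 arrays, and the correlation of any pair of the 72 h arrays was between 0.991 and 0.998. The weights that limma gives to arrays by their closeness to their group ran at 72 h from 0.64 (CIE replicate 63) to 2.01 (Ctrl replicate 16). Levels of some marker lists of neighbouring tissue did differ between the groups, and these values go with each result below. A member of such a list may also be made by BNST neurons, as Penk of the striatal list is. The mean log2 level of 22 thalamic markers was between 8.68 and 8.83 in the Ctrl mice and between 8.82 and 9.52 in the CIE mice. CIE replicate 29, at 8.82, was the 1 CIE mouse inside the Ctrl range. Of these 22 markers 18 were higher in CIE and 4 lower, with a median difference of 0.48, and 0 of the 22 representative probesets were called. Among the thalamic markers Synpo2, an actin-binding protein, was between 5.91 and 6.86 in Ctrl (median 6.61) and between 7.22 and 9.74 in CIE (median 8.79), a log2 difference of 2.12 (SE 0.48, adjusted p = 0.0129). Ramp3, a partner of calcitonin family receptors, differed by 1.79 (adjusted p = 0.0171) and Prkcd, a protein kinase C, by 1.41 (adjusted p = 0.0210), both without overlap of the groups. A place on this list does not make a gene specific to the thalamus. Gbx2 and Ntng1 are also on the cholinergic list and Tcf7l2 on that of oligodendrocyte precursors. Cbln1 and the glutamate transporter Slc17a6, also on the thalamic list, had negative differences of -0.65 and -0.39. Rgs16, a regulator of G protein signalling on the same list that was singled out after its values were seen, had a called second probeset at 1.38 (adjusted p = 0.00505) beside a representative one at 0.66 (adjusted p = 0.0336).

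Striatal markers leaned the other way. The level of 22 markers of striatal medium spiny neurons was between 9.39 and 9.96 in Ctrl and between 9.16 and 9.68 in CIE, with 21 members lower in CIE, 0 called, and wide overlap of the groups. Scn4b, a sodium channel subunit of these neurons, differed by -0.70 (adjusted p = 0.258), and the dopamine receptor gene Drd1 by -0.21 (adjusted p = 0.881). The 17 septal markers lay between 8.06 and 8.22 in Ctrl and between 8.26 and 8.42 in CIE, with no overlap and 0 calls. Hypothalamic and preoptic markers overlapped widely, at 8.24 to 8.67 in Ctrl and 8.13 to 8.66 in CIE. No list held a marker found in the BNST alone, so the label of the tissue could not be checked beyond its neighbours. Penk and Crh, peptides of BNST neurons, were at 12.24 to 12.60 and 9.52 to 10.13 in Ctrl. CIE replicate 29 lay beyond all Ctrl mice in 119 of the 125 called genes, and the other 5 CIE mice did so in 122 to 125. The genes were called on these same mice, so such counts follow largely from the choice of genes. With the thalamic level as a covariate in the fit, an alternative chosen after the data were seen, 0 probesets were called, and with the thalamic and striatal levels together 12 were, of which 3 were among the 195. That level itself differed between CIE and Ctrl at 72 h, so such a fit also takes out any difference the genes share with it. The part of neighbouring tissue in the results was not tested beyond these values.

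**Figure D1:**
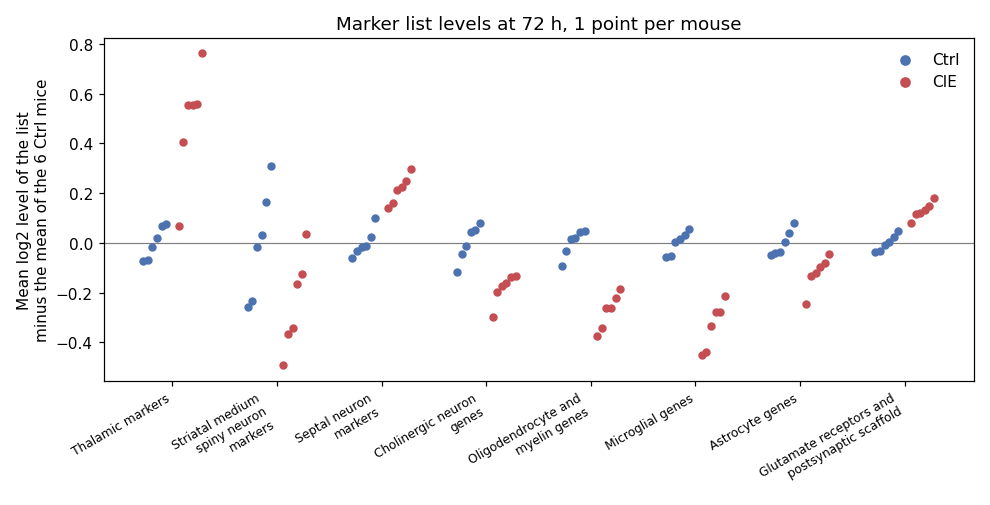
Mean log2 level of each marker list in each of the 12 mice at 72 h, as the difference from the mean of the 6 Ctrl mice (vertical axis), for 8 lists (horizontal axis). Ctrl mice are blue and CIE mice red. The thalamic list lies higher in CIE apart from 1 mouse that reaches the Ctrl range, the striatal list overlaps, and the oligodendrocyte and microglial lists lie lower in CIE with no overlap.

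Some genes of basal forebrain cholinergic neurons fell in CIE at 72 h, namely the transcription factors Lhx8 and Gbx1, the receptor Ngfr and the transporter Slc5a7. Of 17 measured members of the list 4 fell, 1 rose and 12 were not called, 10 had negative and 7 positive differences, and the median difference was -0.24 beside -0.0036 over all genes. Lhx8, a LIM homeobox factor that cholinergic neurons of the mouse forebrain need in order to form, lay between 9.87 and 10.38 in Ctrl (median 10.16) and between 8.94 and 9.63 in CIE (median 9.38). The groups did not overlap, and the log2 difference was -0.82 (SE 0.16, adjusted p = 0.00505). Gbx1, a homeobox gene of the same cells, was at 8.03 to 8.87 in Ctrl (median 8.52) and 7.05 to 7.85 in CIE (median 7.60), a 1.88-fold fall (log2 difference -0.91, SE 0.17, adjusted p = 0.00301). Ngfr codes for the p75 neurotrophin receptor, which adult basal forebrain cholinergic neurons carry. It lay at 8.19 to 8.99 in Ctrl (median 8.75) and 7.07 to 8.11 in CIE (median 7.84), again with every CIE mouse below every Ctrl mouse (log2 difference -0.92, SE 0.20, adjusted p = 0.00879). Its 2 dimmer probesets had differences of -0.19 and -0.36 that did not pass.

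Of the 4 genes that make, load or break down acetylcholine or take up its choline, 1 fell. Slc5a7, the choline transporter, was at 5.95 to 6.29 in Ctrl (median 6.17) and 5.19 to 6.14 in CIE (median 5.50), with 1 CIE mouse inside the Ctrl range (log2 difference -0.59, SE 0.12, adjusted p = 0.00879). Slc18a3, the vesicular acetylcholine transporter, had a difference of -0.57 (SE 0.15, adjusted p = 0.0392), which missed the threshold. Chat, choline acetyltransferase, had -0.30 (adjusted p = 0.131) and Ache, acetylcholinesterase, -0.25 (adjusted p = 0.172), the latter with no overlap of the groups. Slc5a7, Slc18a3 and Chat were dim, with every 72 h value below the median of each array. The 1 member that rose was Isl1, a LIM homeobox factor that pairs with Lhx8 in cholinergic neurons and is also made by striatal neurons. Isl1 lay between 9.74 and 10.35 in Ctrl (median 9.89) and between 10.35 and 10.81 in CIE (median 10.70), with the lowest CIE mouse just above the highest Ctrl mouse (log2 difference 0.73, SE 0.14, adjusted p = 0.00415). A second Isl1 probeset was called as well, at 0.67. The mean level of the whole cholinergic list was 7.83 to 8.03 in Ctrl and 7.65 to 7.82 in CIE.

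**Figure D2:**
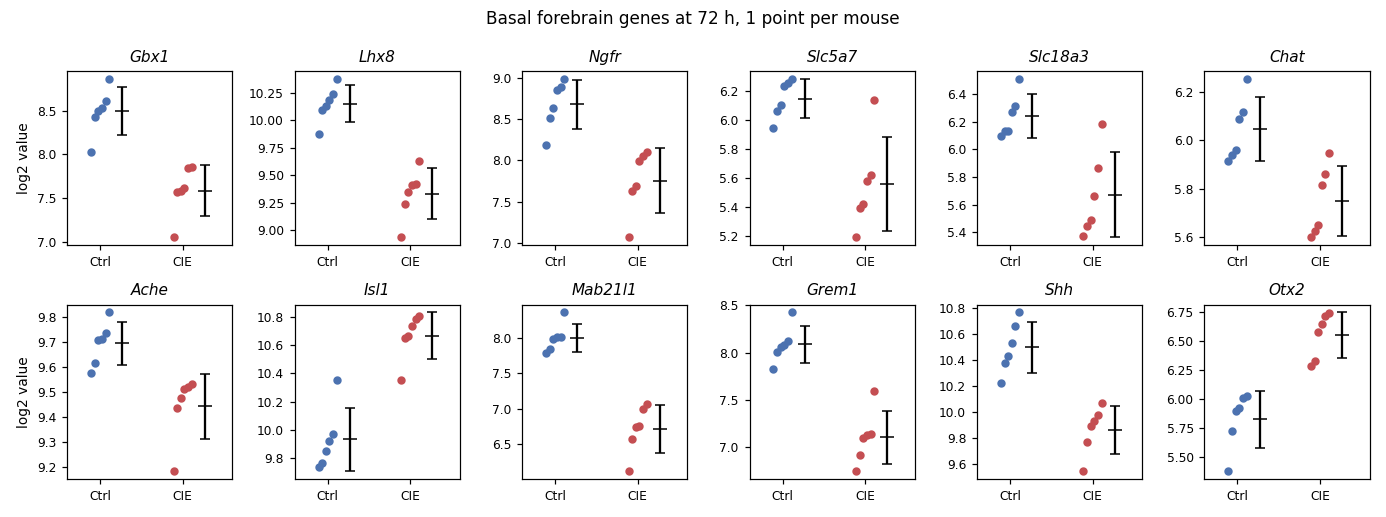
Log2 value (vertical axis) in each of the 6 Ctrl (blue) and 6 CIE (red) mice at 72 h for 12 genes, with the mean and SD of each group beside the points. In 9 of the genes the groups do not overlap. Slc5a7, Slc18a3 and Chat have at least 1 CIE mouse in the Ctrl range.

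These 5 cholinergic list members are shown with the start of their genes, since they were the called members of 1 cell type's list, 4 lower and Isl1 higher. RefSeq windows of 300 bases, 250 before and 50 after the start, were available for 4 of them (build GRCm38.p6). The strand is the gene's own, 5′ to 3′, and capitals mark matches to the Sp1 motif GGGCGG on either strand.
Lhx8 (chr3:154330511-154330810, minus strand): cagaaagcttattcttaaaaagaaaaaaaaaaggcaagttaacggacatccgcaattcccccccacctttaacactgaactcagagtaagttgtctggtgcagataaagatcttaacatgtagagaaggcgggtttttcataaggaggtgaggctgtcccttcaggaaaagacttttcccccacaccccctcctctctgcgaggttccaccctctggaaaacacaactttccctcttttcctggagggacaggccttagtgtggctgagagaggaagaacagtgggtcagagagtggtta
Slc5a7 (chr17:54298985-54299284, minus strand): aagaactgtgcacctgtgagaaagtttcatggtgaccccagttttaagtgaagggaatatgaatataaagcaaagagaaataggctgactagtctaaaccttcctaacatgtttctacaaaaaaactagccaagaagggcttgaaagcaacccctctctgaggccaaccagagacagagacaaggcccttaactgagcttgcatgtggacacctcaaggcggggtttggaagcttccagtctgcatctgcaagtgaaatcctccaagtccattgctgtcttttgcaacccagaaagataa
Ngfr (chr11:95587649-95587948, minus strand): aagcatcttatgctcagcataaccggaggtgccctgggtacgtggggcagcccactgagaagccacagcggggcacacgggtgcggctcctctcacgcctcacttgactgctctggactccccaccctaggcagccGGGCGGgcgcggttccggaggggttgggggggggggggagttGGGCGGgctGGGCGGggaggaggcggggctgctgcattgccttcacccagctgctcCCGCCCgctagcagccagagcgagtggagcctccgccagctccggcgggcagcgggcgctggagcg
Isl1 (chr13:116309639-116309938, minus strand): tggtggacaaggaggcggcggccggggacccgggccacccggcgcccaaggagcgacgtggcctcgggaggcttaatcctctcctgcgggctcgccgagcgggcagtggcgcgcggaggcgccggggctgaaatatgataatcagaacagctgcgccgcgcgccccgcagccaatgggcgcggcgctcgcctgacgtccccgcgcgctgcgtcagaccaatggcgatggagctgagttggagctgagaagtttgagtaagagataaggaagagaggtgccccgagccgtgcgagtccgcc
The 4 windows differed in composition. GC content was 47.0% for Lhx8, 44.7% for Slc5a7, 71.7% for Ngfr and 69.0% for Isl1. The Ngfr window held 4 matches to GGGCGG and the other 3 held 0, and none of the 4 held TGACGTCA (CRE), CACGTG (E-box), TGANTCA (AP-1) or TAATTA (homeobox core), all searched on both strands. Over all called genes with a window, GGGCGG was found in 45 of 64 that rose and 19 of 30 that fell, beside 54.0% of the windows of measured genes and 35.9% of all windows. This motif holds only G and C, and the median GC content of the windows was 62.5% for genes that rose, 59.5% for those that fell and 58.7% for measured genes. CACGTG was found in 8 of 64 that rose and 0 of 30 that fell, beside 9.02% of measured genes and 7.24% of all. TGACGTCA was found in none of the 94, beside 2.68% of measured genes and 1.88% of all windows. TGANTCA was in 3 of 64 and 1 of 30, beside 6.33% of measured genes and 7.93% of all. TAATTA was in 2 of 64 and 0 of 30, beside 3.29% of measured genes and 5.31% of all. The searched motifs do not overlap one another, and a match is a description of letters only.

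Developmental transcription factors and secreted signals moved in both directions. The largest fall of any called gene was in Mab21l1, a nuclear protein that the mouse eye and lens need to form. It lay between 7.78 and 8.36 in Ctrl (median 8.00) and between 6.13 and 7.07 in CIE (median 6.75), a 2.44-fold fall without overlap (log2 difference -1.29, SE 0.25, adjusted p = 0.00505). Its second probeset was called at -1.08. Grem1, a secreted antagonist of bone morphogenetic proteins, was at 7.82 to 8.43 in Ctrl (median 8.07) and 6.75 to 7.59 in CIE (median 7.11), a 1.98-fold fall (log2 difference -0.99, SE 0.16, adjusted p = 0.000710). Shh, the hedgehog ligand, fell by 0.63 (SE 0.14, adjusted p = 0.00885), from 10.22 to 10.76 in Ctrl to 9.55 to 10.07 in CIE. Wif1, a secreted inhibitor of Wnt ligands, was low on these arrays and rose by 0.67 (adjusted p = 0.00972). These were the 3 called of 60 measured genes of Notch, Wnt and hedgehog signalling, Grem1 and Shh lower and Wif1 higher, with a list median of -0.07.

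Among the 63 measured transcription factors of forebrain regional identity 3 rose and 2 fell, the 3 being Isl1, Nr2f1 and Tshz2 and the 2 Mab21l1 and Lhx8, and the median was 0.03. Otx2, a homeobox factor of head development that the choroid plexus also makes, lay between 5.38 and 6.02 in Ctrl (median 5.91) and between 6.29 and 6.75 in CIE (median 6.61; log2 difference 0.73, SE 0.15, adjusted p = 0.00657). It was the 1 called member of 18 choroid plexus and ependymal markers, whose mean level overlapped at 6.08 to 6.22 in Ctrl and 6.11 to 6.45 in CIE. Nr2f1, an orphan nuclear receptor of cortical patterning, rose by 0.44 (SE 0.091, adjusted p = 0.00697) and Tshz2, a zinc finger factor, by 0.32 (SE 0.065, adjusted p = 0.00687). Mycn, a factor of dividing progenitors, rose by 0.62 (SE 0.12, adjusted p = 0.00572), with 7.01 to 7.39 in Ctrl and 7.63 to 7.95 in CIE. Its other probesets, at 0.11 and -0.022, did not pass. Grhl1, a grainyhead factor known from epithelia, rose by 0.73 (adjusted p = 0.00481).

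Neuropeptides and their receptors leaned upward. Of 48 measured members 33 had positive and 15 negative differences, 2 rose, 0 fell, and the median was 0.14. Pnoc codes for the precursor of nociceptin, a peptide of BNST neurons. It lay between 8.41 and 9.17 in Ctrl (median 8.61) and between 9.37 and 9.72 in CIE (median 9.55), with no overlap (log2 difference 0.86, SE 0.18, adjusted p = 0.00906). Oxtr, the oxytocin receptor, was at 6.70 to 7.14 in Ctrl (median 6.83) and 7.16 to 7.36 in CIE (median 7.29), a 1.32-fold rise (log2 difference 0.40, SE 0.084, adjusted p = 0.00800). A dimmer Oxtr probeset had 0.081 and did not pass. Qrfpr, the receptor of the RFamide peptide QRFP, rose 1.63-fold, from 7.11 to 7.68 in Ctrl to 7.88 to 8.16 in CIE (adjusted p = 0.00208), and Gpr101, an orphan receptor, rose 1.39-fold (adjusted p = 0.00885).

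The stress peptides of the BNST were not called. Crh, corticotropin-releasing hormone, lay between 9.52 and 10.13 in Ctrl (median 9.85) and between 9.80 and 10.56 in CIE (median 10.24), a difference of 0.41 (SE 0.20, adjusted p = 0.373). The kappa opioid receptor Oprk1 had every CIE mouse above every Ctrl mouse, at 7.52 to 7.57 in Ctrl and 7.69 to 7.93 in CIE, and a difference of 0.23 (SE 0.080, adjusted p = 0.133). Npy had 0.28 (adjusted p = 0.445), Penk -0.09 (adjusted p = 0.896) and Pdyn a difference near 0 (SE 0.19, adjusted p = 0.997). Bdnf at -0.08 and Fos at 0.08 had adjusted p of 0.911 and 0.923. No gene of the monoamine and endocannabinoid list (29 measured), the immediate early list (37) or the circadian list (22) was called, with medians of 0.06, 0.03 and 0.06.

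Sodium and calcium channel genes leaned upward, and potassium channel genes were mixed. Of 40 measured potassium channel genes 2 rose and 1 fell, with 23 positive and 17 negative differences (median 0.026). Of 24 sodium and calcium channel genes 2 rose and 0 fell, with 20 positive and 4 negative differences (median 0.11). Kcnj3 codes for GIRK1, a potassium channel subunit opened by G proteins. It lay between 9.16 and 9.60 in Ctrl (median 9.25) and between 9.76 and 10.02 in CIE (median 9.85; log2 difference 0.56, SE 0.099, adjusted p = 0.00205). Another Kcnj3 probeset was called at 0.69. Kcnj9, the subunit GIRK3, was at 7.86 to 8.08 in Ctrl (median 7.94) and 8.19 to 8.54 in CIE (median 8.45; log2 difference 0.46, SE 0.098, adjusted p = 0.00878), while its 3 dimmer probesets lay between -0.063 and 0.29 and did not pass. Kcnmb4, a subunit of the large-conductance calcium-activated potassium channel of neurons, fell by 0.46 (SE 0.096, adjusted p = 0.00805), from 10.19 to 10.62 in Ctrl to 9.85 to 10.14 in CIE. Cacna1d, the pore of the L-type calcium channel Cav1.3, rose by 0.38 (SE 0.060, adjusted p = 0.000601), from 8.49 to 8.69 in Ctrl to 8.90 to 9.06 in CIE. Scn2a, a sodium channel pore of axons, rose by 0.22 (SE 0.047, adjusted p = 0.00901).

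At synapses, glutamate and release genes leaned upward, while the calls among release genes were split. Of 36 measured glutamate receptor and scaffold genes 2 rose, 0 fell and 28 had positive differences (median 0.16), and the mean level of the list was 9.14 to 9.23 in Ctrl and 9.26 to 9.36 in CIE. Grm8, a metabotropic glutamate receptor of nerve terminals, lay between 6.82 and 7.35 in Ctrl (median 6.86) and between 7.38 and 7.67 in CIE (median 7.54; log2 difference 0.56, SE 0.10, adjusted p = 0.00259). Dlgap1, a scaffold protein below the postsynaptic membrane, rose by 0.41 (SE 0.080, adjusted p = 0.00481), and 2 of its 5 other probesets were called in the same direction. Of 44 release genes 1 rose and 2 fell, with 31 positive and 13 negative differences (median 0.067). Unc13c, a vesicle priming factor, was at 12.32 to 12.76 in Ctrl (median 12.64) and 11.96 to 12.21 in CIE (median 12.06; log2 difference -0.54, SE 0.091, adjusted p = 0.00147), and a second probeset was called at -0.68. Rab3b, a vesicle GTPase, fell by 0.61 (SE 0.12, adjusted p = 0.00495) with the highest CIE mouse inside the Ctrl range. Syn2, a vesicle phosphoprotein, rose by 0.25 (SE 0.048, adjusted p = 0.00481), and its 5 other probesets, between -0.16 and 0.14, did not pass. Of 19 genes of GABA synthesis, transport and receptors 1 fell and 14 had positive differences (median 0.089). The 1 was Gabrb2, a receptor subunit, at 12.14 to 12.36 in Ctrl and 11.76 to 11.97 in CIE (log2 difference -0.32, SE 0.058, adjusted p = 0.00238).

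The smallest adjusted p of all genes, 0.000432, was shared by Rreb1, Necab1 and Trak2. Rreb1, a zinc finger factor that acts downstream of Ras, lay between 7.52 and 8.11 in Ctrl (median 7.71) and between 8.38 and 8.87 in CIE (median 8.68), a 1.86-fold rise (log2 difference 0.90, SE 0.13). Its 4 dimmer probesets lay between -0.0081 and 0.39 and did not pass. Necab1, a calcium-binding protein of neurons, was at 9.81 to 10.38 in Ctrl (median 9.89) and 10.41 to 10.79 in CIE (median 10.62; log2 difference 0.66, SE 0.10). A dimmer Necab1 probeset had 0.39 and did not pass. Trak2, which ties mitochondria to kinesin, was at 11.88 to 12.16 in Ctrl (median 12.11) and 11.25 to 11.66 in CIE (median 11.53; log2 difference -0.55, SE 0.081). None of these 3 had overlapping groups. Igfbp3, a binding protein of insulin-like growth factors, rose by 0.36 (SE 0.055, adjusted p = 0.000487), and Ak5, an adenylate kinase of brain, rose by 0.64 (SE 0.10, adjusted p = 0.000710) with a second probeset called at 0.62. Plxnc1, a receptor of semaphorins, rose by 0.49 (SE 0.082, adjusted p = 0.00147), while its dimmer probesets lay between -0.22 and 0.59 and did not pass. The copine Cpne7, a calcium-dependent membrane-binding protein, rose by 0.75 (SE 0.12, adjusted p = 0.000568), from 8.85 to 9.37 in Ctrl to 9.63 to 10.08 in CIE.

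Among called genes the largest rise of a representative probeset was in Tmem215, a transmembrane protein, at 5.54 to 6.80 in Ctrl (median 5.78) and 6.81 to 7.42 in CIE (median 7.11), a 2.32-fold difference (log2 difference 1.22, SE 0.25, adjusted p = 0.00605). The highest Ctrl mouse lay just below the lowest CIE mouse, and a second Tmem215 probeset was called at 1.18. A dimmer Tmem215 probeset had 0.0035 and did not pass. Eps8l1, an actin regulator, Rasd1, a Ras-like protein induced by glucocorticoids, Slitrk6, a synaptic adhesion protein, and Cpne9, another copine, followed at log2 differences of 0.99, 0.96, 0.94 and 0.90 (adjusted p between 0.00481 and 0.00952). Glipr1, Medag, Arsj, Capsl and Fam90a1b rose by 0.88, 0.87, 0.86, 0.83 and 0.76, Cd24a, a surface protein of immature neurons, by 0.52, and Ildr2 by 0.66. Of these Capsl, Arsj and Fam90a1b were dim, with Ctrl medians of 3.94, 4.48 and 4.69. The remaining large falls were in AI606473 (-0.73), E330020D12Rik (-0.65), 4921525O09Rik (-0.51), Pdlim2 (-0.50) and Tnni1 (-0.49). Map2, the dendritic microtubule protein, rose by 0.17 (adjusted p = 0.00952) and Prkacb, a catalytic subunit of protein kinase A, by 0.28 (adjusted p = 0.00507). The other Map2 probesets lay between -0.038 and 0.077 and those of Prkacb at -0.037 and -0.054, and none passed.

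**Figure D3:**
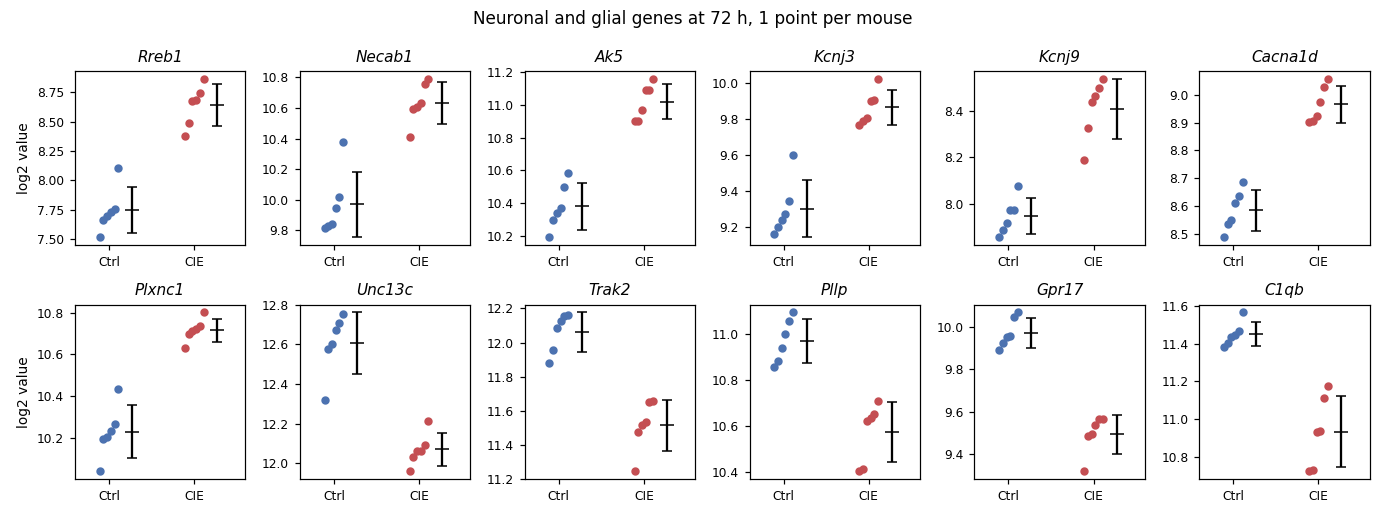
Log2 value (vertical axis) in each of the 6 Ctrl (blue) and 6 CIE (red) mice at 72 h for 12 called genes of neurons and glia, with the mean and SD of each group beside the points. Rreb1, Necab1, Ak5, Kcnj3, Kcnj9, Cacna1d and Plxnc1 lie higher in CIE and Unc13c, Trak2, Pllp, Gpr17 and C1qb lower, each with no overlap of the groups.

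Genes of oligodendrocytes were lower in CIE. All 38 measured members of the oligodendrocyte and myelin list had negative differences, from -0.46 to -0.0099, 4 of them fell, in 23 every CIE mouse lay below every Ctrl mouse, and the median was -0.29. The mean level of the list was 11.11 to 11.25 in Ctrl and 10.83 to 11.02 in CIE. Pllp, a proteolipid of myelin, lay between 10.86 and 11.09 in Ctrl (median 10.97) and between 10.41 and 10.71 in CIE (median 10.63; log2 difference -0.40, SE 0.079, adjusted p = 0.00505). Opalin, a membrane protein of myelinating cells, was at 10.93 to 11.11 in Ctrl and 10.49 to 10.75 in CIE (log2 difference -0.39, adjusted p = 0.00901). Sgk2, a kinase, fell by 0.45 (adjusted p = 0.00871) and Ndrg1, which myelinating cells of the mouse need to keep their sheaths, by 0.31 (adjusted p = 0.00697), both without overlap. Mbp, the major myelin basic protein, had -0.0099 (adjusted p = 0.957) at a level of 14.08 to 14.14 in Ctrl, near the top of the range of these arrays. Of 21 genes of oligodendrocyte precursors 1 fell, Gpr17, a receptor of cells about to myelinate, at 9.89 to 10.07 in Ctrl (median 9.96) and 9.32 to 9.56 in CIE (median 9.51; log2 difference -0.48, SE 0.081, adjusted p = 0.00143).

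Microglial genes had the lowest median of the cell type lists, at -0.39. Of 30 measured members 29 had negative differences, 2 fell, and in 17 the CIE mice lay wholly below the Ctrl mice. The mean level was 8.69 to 8.80 in Ctrl and 8.29 to 8.53 in CIE. The 2 were subunits of complement C1q, which microglia make in brain. C1qb lay between 11.38 and 11.56 in Ctrl (median 11.44) and between 10.73 and 11.17 in CIE (median 10.93; log2 difference -0.51, SE 0.11, adjusted p = 0.00987), and C1qc fell by 0.48 (SE 0.10, adjusted p = 0.00878). C1qa, the other subunit, had -0.44 (adjusted p = 0.0351) without overlap of the groups. Cx3cr1 and P2ry12, which define microglia, had -0.39 (adjusted p = 0.121) and -0.47 (adjusted p = 0.0111), and Fcrls, a microglial receptor, had -0.16 (adjusted p = 0.426). Ccl9, a chemokine of myeloid cells that is not on the list, fell by 0.56 (SE 0.12, adjusted p = 0.00935). Of 30 astrocyte genes 1 fell, the calcium-binding protein S100b, by 0.25 (SE 0.052, adjusted p = 0.00789), at 11.91 to 12.04 in Ctrl and 11.66 to 11.81 in CIE, and the list median was -0.12, with mean levels of 10.66 to 10.79 in Ctrl and 10.46 to 10.66 in CIE. Endothelial and mural genes (32 measured) had a median of -0.075 and 0 calls. With the oligodendrocyte and microglial levels as covariates, chosen after the data were seen, 0 probesets were called, and these levels too differed between the groups with no overlap.

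Glucocorticoid-responsive genes, whose list median was high at the earlier times, leaned downward at 72 h, with 27 of 32 differences negative. Of 32 measured members 1 was called, and the median difference was -0.19 at 72 h beside 0.50 at 0 h, 0.40 at 8 h and -0.04 at 7 d. The 1 was Nr3c1, the glucocorticoid receptor itself, which lay between 10.29 and 10.50 in Ctrl (median 10.41) and between 10.60 and 10.72 in CIE (median 10.67), with no overlap (log2 difference 0.26, SE 0.048, adjusted p = 0.00301). Its 5 other probesets had 0.05 to 0.26 and did not pass. Sgk1, a kinase that glucocorticoids induce, was at 11.65 to 12.52 in Ctrl (median 11.83) and 11.19 to 11.75 in CIE (median 11.28), a difference of -0.55 (SE 0.13, adjusted p = 0.0189). For Fkbp5, which slows the receptor as part of its chaperone complex, the difference was 0.27 (SE 0.079, adjusted p = 0.0588), and Tsc22d3, also called Gilz, had -0.25 (adjusted p = 0.102). Plin4, a lipid droplet protein, had -0.31 (adjusted p = 0.481) and Cdkn1a, the cell cycle inhibitor p21, -0.28 (adjusted p = 0.365).

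**Figure D4:**
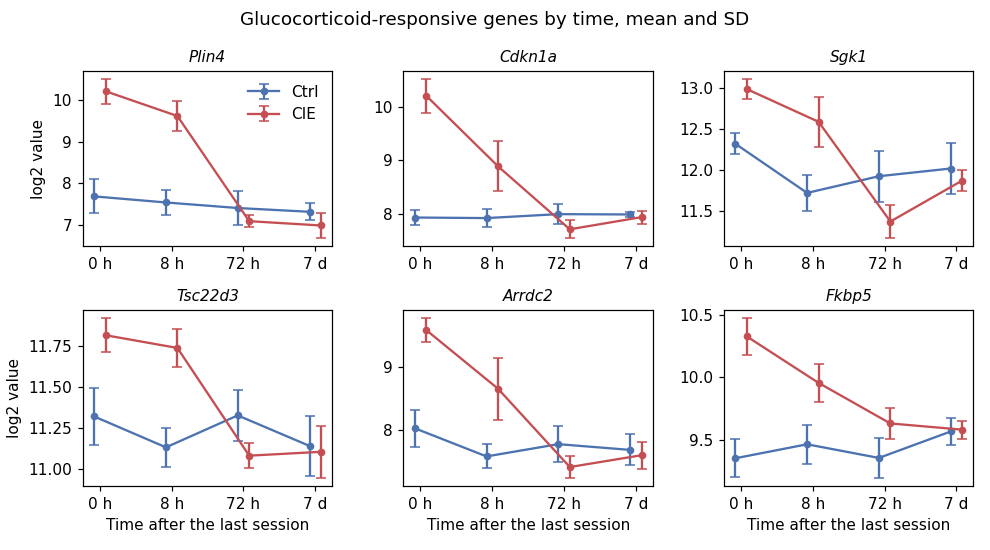
Mean log2 value (vertical axis) with SD at the 4 times of collection (horizontal axis, drawn at even steps) for Ctrl (blue) and CIE (red) mice, for Plin4, Cdkn1a, Sgk1, Tsc22d3, Arrdc2 and Fkbp5, with 6 mice per group and 4 in CIE at 7 d. Plin4 stands at 10.20 and 9.61 in CIE at 0 h and 8 h and at 7.10 at 72 h, beside 7.41 in Ctrl at 72 h.

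The effect at 72 h was tested against the mean of the effects at 0 h, 8 h and 7 d, since a call at 1 time and not at another does not show that they differ. For this contrast 139 probesets passed (0.309%). Against 0 h alone 445 passed, against 8 h 232, and 0 against 7 d by limma, where 2542 had an unadjusted p under 0.05. Of the 10 genes with the smallest p for this contrast all but Hes5 had positive effects at 0 h and 8 h and a negative one at 72 h. The serine protease Htra1 had an effect of -0.25 at 72 h beside 0.63 and 0.50 at 0 h and 8 h, a contrast of -0.62 (SE 0.066, adjusted p = 3.74e-07). The contrast was -1.73 for Plin4 and -1.34 for Cdkn1a (adjusted p = 1.16e-06 for both). Sult1a1, a sulfotransferase, Arrdc2, an alpha-arrestin, Ada, adenosine deaminase, and Gm19439 followed at -0.88, -1.22, -1.23 and -1.16. Hes5, a repressor induced by Notch, had 0.02 at 72 h beside -0.90 and -1.78 at 0 h and 8 h (contrast 0.85, SE 0.13, adjusted p = 0.000243).

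Of the 125 genes called at 72 h the effect of 25 differed from that at the other times. The contrast holds the 72 h effect by which these genes were chosen, which favours such a difference. These included Rreb1 (contrast 0.88, SE 0.16, adjusted p = 0.00144), Sgk2 (-0.62, SE 0.11, adjusted p = 0.00151), Mycn (0.79, SE 0.14, adjusted p = 0.00184), Trak2, Tlcd4, Cd24a, Ak5, Cacna1d, Necab1, Plxnc1, Kcnj9 and Unc13c. The cholinergic genes did not pass: the contrast was -0.73 for Lhx8 (adjusted p = 0.0399), -0.77 for Gbx1 (adjusted p = 0.0348) and 0.75 for Isl1 (adjusted p = 0.0105), although their effects at the other times lay between -0.38 and 0.05. The median size of the effect over the 125 genes was 0.44 at 72 h, 0.092 at 0 h, 0.077 at 8 h and 0.078 at 7 d. A larger size at 72 h is favoured by the choice of genes at that time and is no test of a difference. The same sign as at 72 h was found in 91 genes at 0 h, 58 at 8 h and 94 at 7 d. This was not counted over all genes, so these numbers have no background beside them. No mouse is shared between times. Of the 125 genes 5 were also called at 0 h (Igfbp3, Greb1l, N4bp2l1, Rad9b and 4922502B01Rik, all higher at both times), 2 at 8 h (Gpr17, lower at both, and Cdc7, higher at 72 h and lower at 8 h) and 0 at 7 d. Over all 45037 probesets 1079 were called at 0 h, 251 at 8 h and 0 at 7 d.

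**Figure D5:**
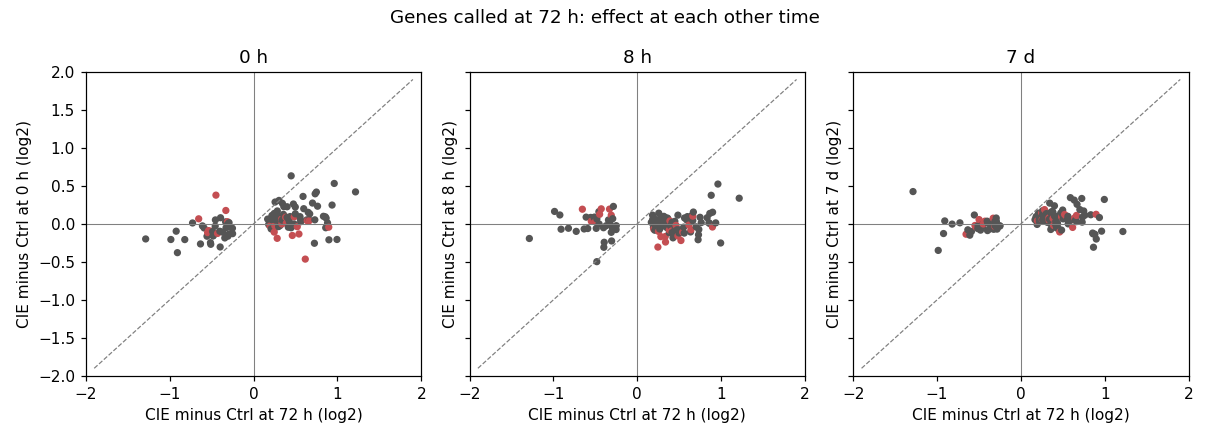
CIE minus Ctrl on the log2 scale at 0 h, 8 h and 7 d (vertical axes) against the same at 72 h (horizontal axis) for the 125 genes called at 72 h, 1 point per gene. The dashed line marks equal effects, and red points are the 25 genes whose effect at 72 h differed from the mean of the other times. The points lie near 0 on the vertical axes, with median sizes of 0.092, 0.077 and 0.078. The genes were chosen by their difference at 72 h, which favours smaller sizes at the other times.

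Both groups of 72 h were also set beside the same treatment at the other 3 times, a comparison that shares its 72 h arrays with the results above. In all 125 called genes the Ctrl mean of 72 h lay off the other Ctrl times in the direction opposite to the call, and in 116 the CIE mean of 72 h lay off the other CIE times in the direction of the call. The genes were called on these same 72 h means, which favours both directions, so the counts do not show which group moved. The Ctrl deviation was the larger in 96 genes, with a median size of 0.26 beside 0.15 for CIE. It passed the threshold in 17 genes for Ctrl and in 7 for CIE, while over all probesets, called at 72 h or not, 122 passed for Ctrl and 642 for CIE. Gpr17 stood above the other times in both treatments, by 0.55 in Ctrl (adjusted p = 5.52e-06) and by 0.29 in CIE (adjusted p = 0.00718). Lhx8 was 0.48 above the other Ctrl times in Ctrl (adjusted p = 0.0615) and off by -0.25 in CIE (adjusted p = 0.331), and Rreb1 was off by -0.52 in Ctrl (adjusted p = 0.00954) and 0.36 in CIE (adjusted p = 0.0606). List medians showed the same split by cell type. In Ctrl at 72 h the microglial list was 0.27, the cholinergic list 0.17 and the oligodendrocyte list 0.16 above the other Ctrl times, against -0.033, 0.020 and -0.053 in CIE. The thalamic list was 0.21 above the other CIE times in CIE and -0.13 off in Ctrl.

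Single mice weighed on the counts. Leaving out 1 of the 12 mice left between 28 called probesets (without Ctrl replicate 68) and 230 (without Ctrl replicate 24). Of the 125 called genes 19 stayed called in each of the 12 fits, among them Grem1, Rreb1, Necab1, Trak2, Ak5, Cacna1d, Kcnj3, Plxnc1, Unc13c, Qrfpr, Gpr17, Cpne7, Igfbp3, Tlcd4 and Cd24a. Gbx1 stayed called in 9 fits, Lhx8 in 4, Isl1 in 4, Ngfr in 3 and Slc5a7 and Mab21l1 in 2 each. Pllp stayed called in 5, C1qc in 3, Pnoc, Shh and C1qb in 1 each, and Opalin and Sgk2 in 0. Among the largest rises Slitrk6 stayed called in 5, Tmem215, Rasd1 and Cpne9 in 1 each, and Eps8l1 in 0. The sign of the difference was kept in each of these fits. In the 116 called genes without overlap of the groups, leaving out 1 mouse cannot turn it, so this adds no support.

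Lists of general cell functions had medians near that of all genes. ER folding genes (30 measured, median 0.0062), heat shock genes (22, 0.032), mitochondrial respiratory chain subunits (50, -0.032), cytosolic ribosomal proteins (36, -0.032), ethanol and acetaldehyde enzymes (18, -0.021) and cholesterol and fatty acid synthesis genes (33, -0.036) had 0 calls each. Interferon and antigen presentation genes (35 measured) had a median of -0.13, with 31 members negative and 0 called, beside 0.30 at 0 h.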

How the data were processed

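BNST RNA of 46 mice, 1 mouse per Affymetrix array, was measured, and the 12 arrays of 72 h were compared. The deposited values were log2 expression values per probeset, which the authors made with the affy package, by RMA background correction and quantile normalization within each hybridization batch and then quantile normalization over all arrays, followed by a separate ComBat adjustment for batch. Tool versions, and which batch held which array, are not given in the sources used here. Batch was therefore no term in any fit, and its removal may alter the spread between mice. Of 45037 probesets 34945 had 1 gene symbol in the platform annotation, 932 several and 9160 none. A gene was represented by its probeset with the highest mean over the 46 arrays, which gave 18193 genes.

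Group means were fitted with limma 3.58.1 in R 4.3.3 over all 46 arrays (8 groups, 38 residual degrees of freedom), two-sided, with Benjamini-Hochberg adjustment over all probesets and calls at an adjusted p of 0.01 or less. The fit was tested on simulated data with independent normal noise for each probeset. Such data lack correlation between genes and differences in tissue, so they do not speak for the calls made here. Values are log2 differences, CIE minus Ctrl, with the standard error (SE) of the fit. Named were the 20 largest rises and 20 largest falls, the genes with the smallest p for 72 h and for 72 h against the other times, the largest called members of each of 45 gene lists (1578 of 1715 memberships measured) or, where none passed, those with the smallest p, and a set of fixed genes. The values of 1 of these lists are not reported here. The members and lists were chosen with earlier results of these data known. Rgs16, Greb1l, N4bp2l1, Rad9b, 4922502B01Rik, Cdc7, Mbp, Cx3cr1 and P2ry12 were added after their values were seen. Promoter windows came from RefSeq (GRCm38.p6) for 94 of the 125 called genes. Replicate numbers name mice and pair none. No counts lie behind array values, so the number of mice limits the precision. Alternatives changed the arrays fitted, weights, prior, normalization, probeset filter, covariates and the mice included.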

Additional observations from a re-analysis of the deposited data

Results flagged for a closer look

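Values of single mice that lay far from the other 5 of their group were looked for in 107 genes, which gave 214 groups, and 17 were found. Chance alone gives about 1 in 20 groups. In Ctrl replicate 24 there were 7, each of them the Ctrl value nearest to the CIE mice: Nr2f1 at 11.06, Map2 at 12.82, Necab1 at 10.37, Tmem215 at 6.801, Tlcd4 at 9.678, Cd24a at 8.66 and Pdlim2 at 10.05. Without this mouse 230 probesets were called in place of 195. In CIE replicate 29, the CIE mouse with the lowest thalamic marker level, Isl1 was low at 10.35, Tlcd4 at 9.7 and Scn4b at 9.257. In CIE replicate 3, Gbx1 was low at 7.053 and Ache at 9.185, and in CIE replicate 71 Gpr17 was low at 9.318. In Ctrl replicate 68 the thalamic markers Synpo2 and Prkcd were low at 5.905 and 7.85 and 4921525O09Rik was high at 7.684. In Ctrl replicate 34, Plin4 was high at 8.232.

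The effect of CIE at 72 h differed from the mean of its effects at 0 h, 8 h and 7 d for 26 named genes, by limma's test of that difference at an adjusted p of 0.01 or less. Many of these genes were named for a call at 72 h or for a small p of this test. Their number is therefore no share of genes at large. Neuronal and other genes called at 72 h had positive differences of 0.883 for Rreb1, 0.792 for Mycn, 0.627 for Ak5, 0.578 for Necab1, 0.566 for Cd24a, 0.555 for Kcnj9, 0.477 for Plxnc1, 0.381 for Tlcd4, 0.357 for Cacna1d and 0.336 for Cdc7. Called genes with negative differences were E330020D12Rik at -0.695, Sgk2 at -0.616, Trak2 at -0.514, Unc13c at -0.506 and Pdlim2 at -0.496. Genes that were not called at 72 h and had moved at earlier times made up the rest. Among them Plin4 had -1.73, Cdkn1a -1.34, Ada -1.23, Arrdc2 -1.22, Gm19439 -1.16, Sgk1 -1.01, Sult1a1 -0.885, Htra1 -0.616 and Tsc22d3 -0.602. Hes5 had 0.854 and Fcrls 0.545.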

How the results depend on the processing

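The 72 called genes named in the text kept their sign under each alternative fitted per probeset, 23 for each gene and 22 for Slc5a7, Wif1, Arsj, Capsl and Fam90a1b, which the minimum on the mean value left out, while counts of calls moved widely. No paired analysis was possible because replicate numbers name single mice and no number is shared between the groups compared. With only the 12 arrays of 72 h, 404 probesets were called (241 higher, 163 lower, 256 genes), of which 154 were among the 195, and 59.7% of them were higher. With array weights there were 1151 (620 higher, 531 lower, 723 genes; 53.9% higher), which held all 195, with 702 for 72 h against 8 h and 458 against the mean of the other times. With the first 2 principal components of the residuals there were 1123 (457 higher, 666 lower, 695 genes; 40.7% higher), which held all 195. An intensity trend with a robust prior gave 88 lower, and a mean log2 minimum of 6 gave 98 lower and 212 for the contrast with the other times. Alternatives chosen after seeing the data were the marker covariates and another control. The thalamic level as a covariate left 0 probesets and 0 genes in either direction, the thalamic and striatal levels left 12 (12 higher, 0 lower, 8 genes), and the oligodendrocyte and microglial levels left 0 in either direction and 0 genes. Ctrl of all 4 times as the control gave 80 (39 higher, 32 genes; 48.8% higher), of which 26 were among the 195. The cause of these shifts was not tested.

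Leaving out 1 mouse gave 28 to 230 called probesets, 21 to 150 higher, 7 to 80 lower and 21 to 146 genes. The counts were 56, 230, 61, 30, 51 and 28 without Ctrl replicates 16, 24, 34, 44, 52 and 68, and 35, 160, 38, 108, 83 and 41 without CIE replicates 3, 29, 35, 61, 63 and 71. The contrasts ranged from 329 to 425 against 0 h, 157 to 250 against 8 h, 0 to 0 against 7 d and 81 to 171 against the mean of the other times. List medians ranged from -0.28 to -0.17 for cholinergic genes, 0.072 to 0.13 for GABA genes, 0.053 to 0.092 for release genes, -0.0034 to 0.077 for regional factors, 0.0034 to 0.093 for cortical markers, -0.15 to -0.11 for oligodendrocyte precursor genes, -0.063 to 0.00028 for antioxidant genes and 0.0067 to 0.026 for ubiquitin genes. With the mean of all probesets of a gene, the medians were 0.28 for thalamic markers, 0.023 for GABA genes, 0.038 for axon guidance genes and 0.015 for chromatin genes.

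Signs turned only in genes that were not called. Pdyn had 0.022 with array weights, 0.017, 0.18 and 0.038 with the thalamic, the thalamic and striatal, and the glial covariates, 0.031 against all Ctrl mice, and 0.086, 0.015, 0.060, 0.0083, 0.0023 and 0.012 without Ctrl replicates 34 and 52 and CIE replicates 29, 35, 61 and 63 (range over the 12 mice left out -0.069 to 0.086). Hes5 had -0.036, -0.0021 and -0.0029 without Ctrl replicate 34 and CIE replicates 3 and 71 (range -0.036 to 0.045), and -0.068 with the glial covariates. With the thalamic covariate Rora had -0.029 and Tcf7l2 -0.14, and with the striatal level added Rora had -0.0046, Tcf7l2 -0.12, Penk 0.084 and Drd1 0.048. Against all Ctrl mice Fcrls had 0.052 and Fos -0.11.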

Other observations

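Lhx8 varied together with Gbx1, Ngfr and Slc5a7 of the cholinergic list among mice of the other times. Mab21l1 is not on that list, and Chat, Slc18a3 and Ache were not looked at. Over the 34 mice of 0 h, 8 h and 7 d, as deviations from their group means, Lhx8 and Gbx1 had a Pearson r of 0.95 (permutation p = 1e-05, the smallest 100000 resamples can give, adjusted p = 5e-05 over 10 relations) and a Spearman rho of 0.941 (permutation p = 1e-05), and r was 0.933 without the 2 mice farthest from the median. For Lhx8 and Ngfr r was 0.805 and rho 0.77 (permutation p = 1e-05 for both), and r was 0.766 without the 2 farthest. Lhx8 and Mab21l1 had an r of 0.668 (permutation p = 0.00012, adjusted 0.0004), a rho of 0.631 (permutation p = 0.00033) and 0.585 without the 2 farthest. Lhx8 and Slc5a7 had 0.481 (permutation p = 0.0108, adjusted 0.0154), a rho of 0.49 (permutation p = 0.00861) and 0.43. Lhx8 and Isl1 went in opposite directions, as at 72 h, with an r of -0.474 (permutation p = 0.0144, adjusted 0.018), a rho of -0.436 (permutation p = 0.0194) and -0.538.

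The thalamic marker level in the same mice went with Kcnj3 at an r of 0.589 (permutation p = 0.0025, adjusted 0.00625; rho 0.551, p = 0.0025; 0.595 without the 2 farthest), with Pnoc at 0.54 (permutation p = 0.00964, adjusted 0.0154; rho 0.422, p = 0.0276; 0.468) and with Lhx8 at -0.462 (permutation p = 0.0107, adjusted 0.0154; rho -0.415, p = 0.0273; -0.316). For Rreb1 r was 0.308 (permutation p = 0.137, adjusted 0.153; rho 0.0756, p = 0.691) and 0.0253 without the 2 farthest. The thalamic and striatal levels had an r of -0.109 (permutation p = 0.606; rho -0.0934, p = 0.621; -0.176 without the 2 farthest). These pairs were chosen after the values of 72 h were seen.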
